A study of Mus musculus with 3 samples.

Results

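Complement is a cascade of plasma proteins that tags cells, microbes and debris for removal. The classical pathway starts when C1q, a collagen-like protein built from the A, B and C chains, binds its target, after which C4 and C2 form the enzyme that cleaves C3. The alternative pathway amplifies C3 cleavage with factor B and factor D, and the small fragment C3a acts on cells through its receptor. Adipocytes are a known source of factor D, also called adipsin, while macrophages are a known source of C1q in tissues.

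The genes described here are 9 complement genes, namely C1qa, C1qb, C1qc, C2, C4b, Cfb, C3, Cfd and C3ar1, taken as every non-control probe whose RefSeq accession belongs to one of them. They were measured by 10 probes and make up 9 of the 19331 genes and unnamed features tested. All 9 genes had a probe that passed the filter on dim probes. C3ar1 passed through the Ad-Lkb1 channel, its wild-type signal having cleared background on 2 arrays.

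Whole brown fat, a tissue that burns lipid to make heat, was taken from Ad-Lkb1 mice, in which the kinase LKB1 (gene Stk11) is deleted, and from wild-type littermates. All were male, 10 weeks old and fed regular chow. The strain label reads C57BL/6J on Ad-Lkb1 samples, whereas it reads C57BL/6 on wild-type ones. The promoter behind the deletion, and whether a sample is 1 animal or a pool, are not given in the sources used here. Each of 3 two-colour arrays carried 1 Ad-Lkb1 sample in Cy5 and 1 wild-type sample in Cy3, so genotype, dye and strain name cannot be told apart.

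Signal well above background was seen at 46.7% to 51.3% of features, depending on channel and array, and no spot was saturated. Stk11 was lower in Ad-Lkb1 tissue, with log2 ratios of -1.26, -1.17 and -1.17 on arrays 1 to 3 (limma, adjusted p = 0.0105), which goes with the labels. Ucp1, the uncoupling protein that defines brown fat, was well above background in every sample and higher in Ad-Lkb1 tissue (log2 ratio 1.48, limma adjusted p = 0.0114). Array 3 stood apart from the others. Across genes, which are not independent replicates, its ratios correlated with those of arrays 1 and 2 with Pearson's r = 0.36 and 0.50, while arrays 1 and 2 correlated with r = 0.73. Calls of complement genes that change without it are given both ways.

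C1qb and C1qc, which moved together as described below, are neighbours on chromosome 4, followed by C1qa in the RefSeq annotation of GRCm38.p6. The 250 bases before the start sites of C1qb and C1qc are shown 5′ to 3′ on the gene's own strand, from RefSeq. Of the 9 genes, 5 had a promoter in that table. Capitals mark matches on either strand to GAGGAA, the core bound by the myeloid factor PU.1, and to an NF-kB element searched as GGGA followed, after 4 bases of any kind, by CC. The C1qb matches to that element overlap, being read on both strands. The C1qb window is chr4:136886201-136886450 and the C1qc window is chr4:136892915-136893164, both on the minus strand.
C1qb: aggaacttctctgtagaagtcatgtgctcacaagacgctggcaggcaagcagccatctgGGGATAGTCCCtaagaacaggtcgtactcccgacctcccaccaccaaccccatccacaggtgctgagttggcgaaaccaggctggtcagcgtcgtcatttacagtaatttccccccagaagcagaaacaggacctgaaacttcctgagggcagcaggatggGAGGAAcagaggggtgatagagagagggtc
C1qc: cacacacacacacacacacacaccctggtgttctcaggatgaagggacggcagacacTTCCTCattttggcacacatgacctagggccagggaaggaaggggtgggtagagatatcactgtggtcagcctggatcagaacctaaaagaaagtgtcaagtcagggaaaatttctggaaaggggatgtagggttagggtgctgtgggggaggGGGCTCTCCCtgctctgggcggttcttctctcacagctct
GAGGAA occurred at bases -30 to -25 of C1qb and, on the opposite strand, at bases -193 to -188 of C1qc, counted from the base before the start site. Of 32851 promoter windows of the same length, 23.3% held GAGGAA and 17.6% held the NF-kB letters, so neither match is rare. C3 also held the NF-kB letters and TTGCNNAA, a C/EBP element found in 9.56% of windows, while the windows of C3ar1 and Cfd held none of the motifs searched. An interferon regulatory factor element, searched as GAAA repeated after 2 bases of any kind, and TTCNNNGAA, a STAT element, occurred in none of the 5 windows and in 2.98% and 7.02% of all windows. A match is a description of letters, not a site shown to be bound.

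Levels below are log2 intensities of each channel after normalisation, so that the Ad-Lkb1 level minus the wild-type level of an array is its log2 ratio. Levels of different probes are not comparable with each other. In whole tissue, a larger number of cells of a type and more RNA per cell cannot be told apart. Of the 9 genes, 1 passed the threshold of adjusted p under 0.05, the receptor gene C3ar1, which rose and was tested through the Ad-Lkb1 channel. Of all 19331 features, 8.70% passed, 4.77% higher and 3.92% lower, so 1 of 9 is close to the background. At an unadjusted p under 0.05 there were 6 of the 9, against 29.3% of all features. With median centring in place of loess, the split over all features was 389 higher and 9708 lower, against 923 higher and 758 lower in the main analysis, and the median of all features was -0.42. The median log2 ratio of the 9 genes was 0.75, which is the value of C3ar1, against -0.0098 over all features. Its size depends on the processing. It was 0.54 with median centring, 1.35 with an offset of 10 in the background correction and 1.67 with the software's processed signals. With both channels required to exceed background it was 1.02, over 8 genes. The spread between arrays was large for most of the 9 genes, and the levels of each sample show where it lay.

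**Figure D1:**
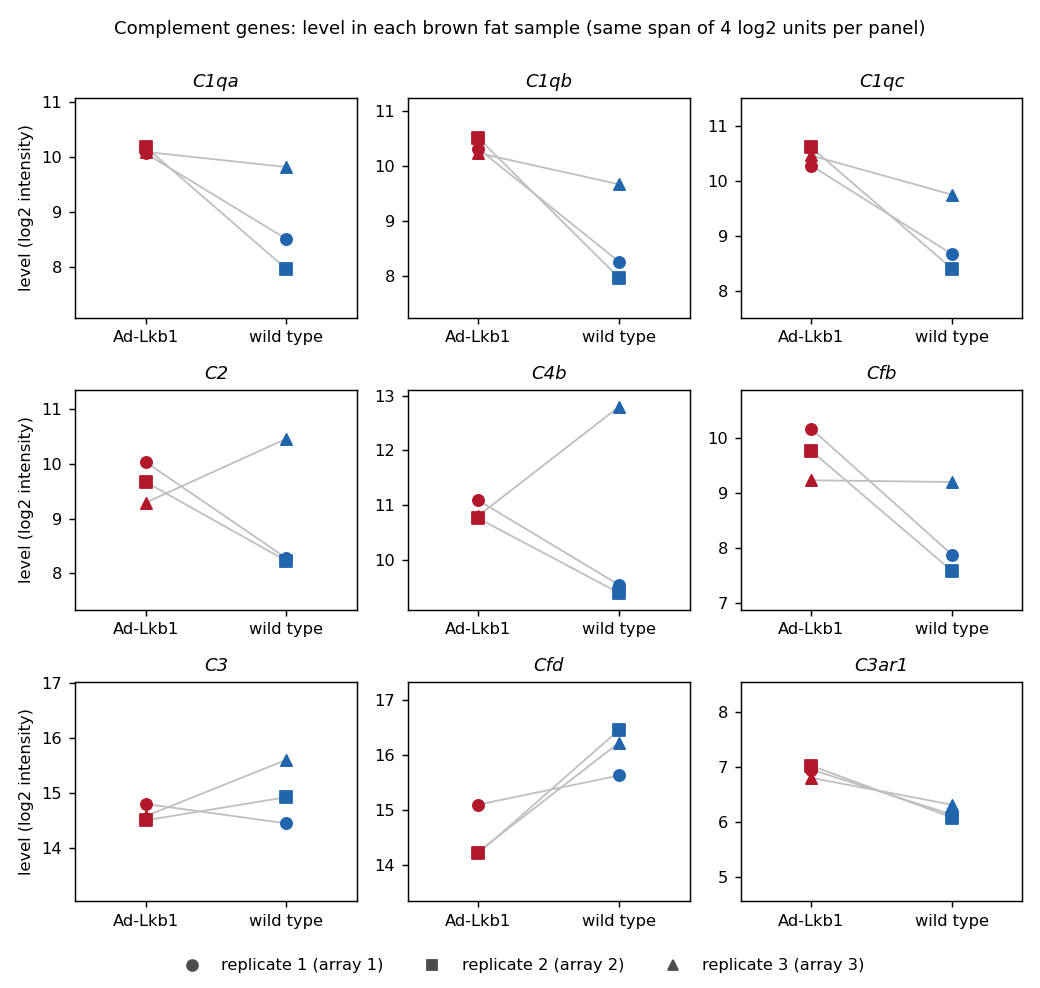
Level (log2 intensity, y axis) of each complement gene in the Ad-Lkb1 samples (left in each panel) and wild-type samples (right), with a grey line joining the samples of one array and symbols marking replicates 1 to 3. Wild-type replicate 3 (blue triangle) is the highest wild-type sample in 8 of the 9 panels, all but Cfd.

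C1qa, C1qb and C1qc encode the chains of C1q, which recognises targets of the classical pathway. C1qa had levels of 10.06, 10.18 and 10.09 in Ad-Lkb1 samples 1 to 3, against 8.50, 7.95 and 9.81 in the wild-type samples. The Ad-Lkb1 samples lay close together and above every wild-type sample, of which replicate 3 was the nearest. Its log2 ratio averaged 1.35 ± 0.99 (SD, n = 3 arrays), a 2.56-fold higher level that did not pass the threshold (limma, adjusted p = 0.104).

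C1qb had levels of 10.32, 10.51 and 10.24 in Ad-Lkb1 samples, against 8.26, 7.96 and 9.67 in wild-type samples. The groups did not overlap, and replicate 3 was again the highest wild-type sample. The log2 ratio was 1.73 ± 1.03 (SD, n = 3, limma adjusted p = 0.0720), or 3.31-fold. C1qc had levels of 10.29, 10.62 and 10.47 in Ad-Lkb1 samples, against 8.67, 8.41 and 9.75 in wild-type samples. Its log2 ratio of 1.51 ± 0.75 (SD, n = 3) was just short of the threshold (limma, adjusted p = 0.0523) and passed with 5 of the 12 alternatives, among them no background subtraction (adjusted p = 0.0414) and probes above background in both channels (0.0477).

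C1qc was printed 10 times on each array, which gives the spot error within an array. The SD over these spots was 0.070, 0.050 and 0.061 on arrays 1 to 3, while the array means were 1.62, 2.21 and 0.71. This SD leaves out labelling and hybridisation error, which separate arrays include. C1qa and C1qb, with 1 spot each, had the same order, with array 2 highest (2.23 and 2.55) and array 3 lowest (0.28 and 0.57).

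**Figure D2:**
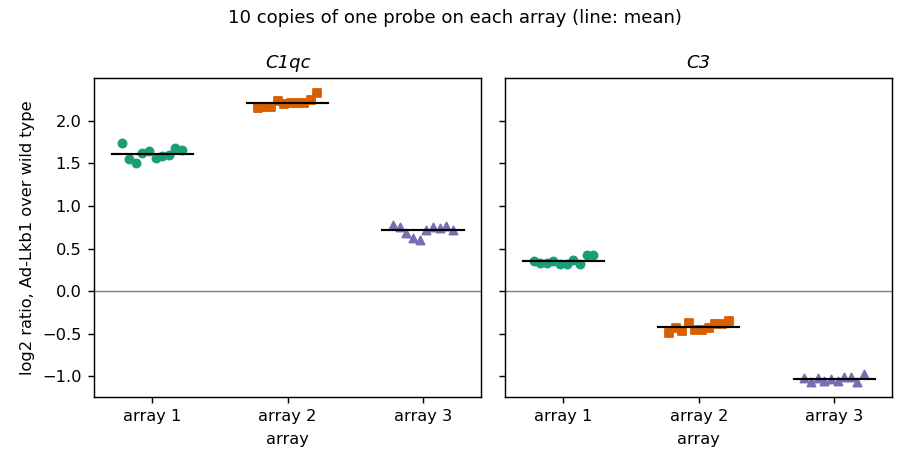
Log2 ratio, Ad-Lkb1 to wild type, (y axis) for the 10 spots of the C1qc probe and of the main C3 probe on arrays 1 to 3, with a line at the mean of the spots. Spots of one array lie close together, with SDs from 0.031 to 0.070, while the arrays are separated.

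C4b and C2 encode the proteins that C1 cleaves to form the classical C3 convertase. C4b had levels of 11.09, 10.76 and 10.81 in Ad-Lkb1 samples, against 9.55, 9.40 and 12.80 in wild-type samples. Wild-type replicate 3 was above all Ad-Lkb1 samples, and wild-type replicates 1 and 2 were below them. The log2 ratios were 1.54, 1.36 and -1.99 on arrays 1 to 3, and their mean of 0.30 ± 1.99 (SD, n = 3) did not differ from 0 beyond the spread (limma, adjusted p = 0.835). The mean turned to -0.41 with median centring (median of all features -0.42), to -0.31 without array 1 and to -0.22 without array 2, so C4b has no settled direction. C4b has a close paralog, C4a, which no probe on the array carried by accession, and whether the C4b probe also measured it is uncertain.

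C2 had levels of 10.03, 9.67 and 9.29 in Ad-Lkb1 samples, against 8.28, 8.23 and 10.46 in wild-type samples. The pattern was that of C4b, with wild-type replicate 3 above every other sample. Its log2 ratios were 1.75, 1.44 and -1.17, with a mean of 0.68 ± 1.60 (SD, n = 3, limma adjusted p = 0.534), or 0.0013 with median centring.

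Cfb, next to C2 on chromosome 17, encodes factor B, the protease that forms the alternative C3 convertase. It had levels of 10.17, 9.77 and 9.23 in Ad-Lkb1 samples, against 7.87, 7.58 and 9.20 in wild-type samples. The groups just failed to overlap, since Ad-Lkb1 replicate 3 was the lowest of its group and wild-type replicate 3 the highest of the other. The log2 ratios of 2.30 and 2.19 on arrays 1 and 2 were among the largest of the 9 genes, but array 3 gave 0.031, and the mean of 1.51 ± 1.28 (SD, n = 3) did not pass (limma, adjusted p = 0.133).

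C3 encodes the protein on which all pathways converge. It had levels of 14.80, 14.50 and 14.58 in Ad-Lkb1 samples, against 14.44, 14.92 and 15.60 in wild-type samples. The groups overlapped. The log2 ratios were 0.35, -0.42 and -1.03, with a mean of -0.36 ± 0.69 (SD, n = 3, limma adjusted p = 0.446). With median centring the mean was -1.05 and passed as lower (adjusted p = 0.0144), as did 9708 of all 19331 features. The main C3 probe was also printed 10 times, and the SD over its spots was 0.039, 0.047 and 0.031, which covers spot error within an array and not labelling or hybridisation. A second C3 probe had the same order of arrays, with log2 ratios of 0.53, -0.74 and -1.31.

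Cfd encodes factor D, or adipsin, which activates factor B and is secreted by adipocytes. It was the member with the lowest mean ratio. Its levels were 15.10, 14.21 and 14.24 in Ad-Lkb1 samples, against 15.63, 16.46 and 16.23 in wild-type samples. Every Ad-Lkb1 sample lay below every wild-type sample, and the gap was smallest on array 1. The log2 ratios were -0.53, -2.25 and -1.99, and the mean of -1.59 ± 0.93 (SD, n = 3), a level 3.01-fold higher in wild type, did not pass the threshold (limma, adjusted p = 0.0694). It did pass with 4 of the 12 alternatives, among them no background subtraction (-1.71, adjusted p = 0.0472), and over all of them the mean ranged from -2.28 to -1.26. Cfd was the member in which wild-type replicate 3 was not the highest wild-type sample.

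C3ar1 encodes the receptor for C3a, carried by macrophages and other myeloid cells. Its levels were 6.96, 7.03 and 6.81 in Ad-Lkb1 samples, against 6.13, 6.08 and 6.31 in wild-type samples. The groups did not overlap and the samples of a genotype lay close together. The log2 ratios of 0.82, 0.94 and 0.49 gave a mean of 0.75 ± 0.23 (SD, n = 3), a 1.69-fold rise (limma, adjusted p = 0.0325). The probe was dim, with raw red signals of 56.0, 69.0 and 54.5 against a background of 17 to 18. The offset of the background correction therefore understates its fold and also narrows the spread of its levels. With the software's processed signals its levels were 7.28, 7.54 and 7.21 in Ad-Lkb1 samples, against 5.14, 4.58 and 5.66 in wild-type samples. With probes required to exceed background in both channels, C3ar1 was not tested. Since it passed the filter through the genotype in which it is higher, its call and fold rest on a wild-type signal near background. Its call was lost without a filter on dim probes (adjusted p = 0.0619), without array 1 (0.174) and without array 2 (0.154).

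**Figure D3:**
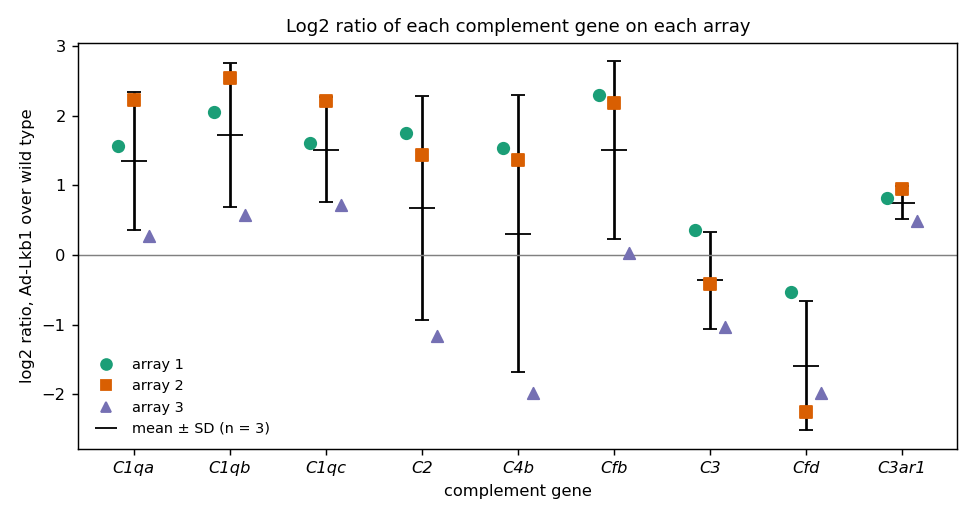
Log2 ratio, Ad-Lkb1 to wild type (y axis), of the 9 complement genes on arrays 1, 2 and 3, with a black bar at the mean and whiskers of 1 SD (n = 3). Array 3 (triangle) is the lowest for every gene except Cfd, and C2 and C4b change sign on it.

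The genes thus fell into 3 kinds by their ratios. C1qa, C1qb, C1qc, Cfb and C3ar1 had ratios above 0 on all arrays, as did 24.1% of all features, and their levels did not overlap, as with 17.8% of all features. Cfd had ratios below 0 on all arrays and levels that did not overlap, as with 18.7% of all features. C2, C4b and C3 had ratios of both signs. In all, 6 of the 9 kept 1 sign over the arrays, against 51.8% of all features, and 6 had levels that did not overlap in either direction, against 36.5%. The ratio of array 3 was below those of arrays 1 and 2 for 8 of the 9 genes, against 33.6% of all features.

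The difference between arrays lay mainly on the wild-type side. The level was highest in wild-type replicate 3 for 8 of 9 genes, against 30.8% of all features. The range of levels was wider over the wild-type samples than over the Ad-Lkb1 samples for 8 of 9 genes, against 58.8% of all features. For C4b the range was 0.33 over the Ad-Lkb1 samples and 3.40 over the wild-type samples. The median range of the 9 genes was 0.33 over the Ad-Lkb1 samples and 1.62 over the wild-type samples, while over all features it was 0.18 and 0.21. The same 8 genes were highest in wild-type replicate 3 when levels were taken from the scanner software's own processed signals or without scaling between arrays.

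**Figure D4:**
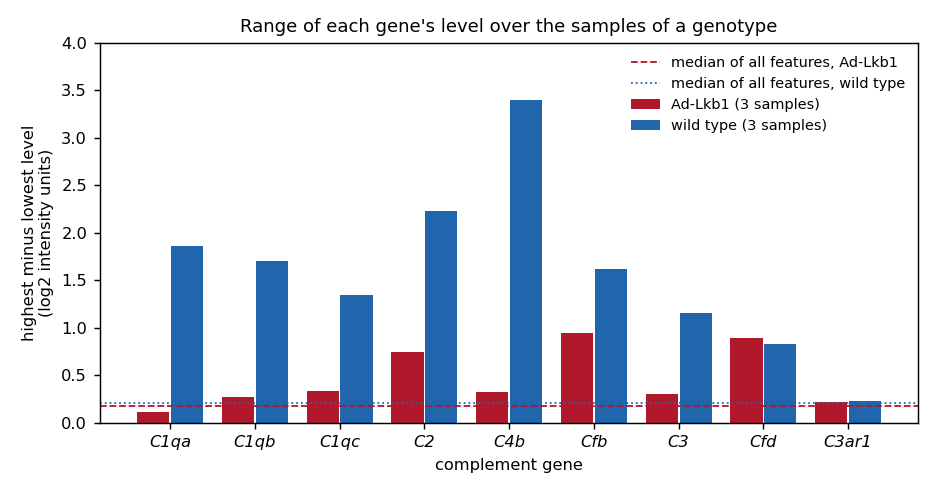
Highest minus lowest level (log2 intensity units, y axis) of each complement gene over the 3 Ad-Lkb1 samples (red) and the 3 wild-type samples (blue), with dashed and dotted lines at the median range of all features. The C4b bars are 0.33 and 3.40, and the bars of Cfd and of C3ar1 are nearly equal between genotypes.

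Without array 3, 7 of the 9 genes passed the threshold, all of them higher in Ad-Lkb1 tissue, against 6.85% of all features (3.70% passed lower and 10.6% in either direction). These were C1qb (log2 ratio 2.31, limma adjusted p = 0.00568), Cfb (2.24, 0.00473), C1qc (1.91, 0.00873), C1qa (1.89, 0.0104), C2 (1.60, 0.00689), C4b (1.45, 0.00636) and C3ar1 (0.88, 0.0148). Cfd had -1.39 (adjusted p = 0.109) and C3 had -0.034 (adjusted p = 0.940), neither past the threshold. That fit rests on 2 arrays, array 3 was known to differ when it was made, and C3ar1 entered it through the Ad-Lkb1 channel. Without array 1 or without array 2, limma called 0 of the 9 genes, with 4 at an unadjusted p under 0.05 in either case, and 0 of all features.

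Macrophage and interferon response genes were read in the same samples. Of 11 macrophage markers tested, 6 rose and 0 fell, against 4.77% of all features higher and 3.92% lower. Among the 6 were Cd68 (log2 ratio 2.24, limma adjusted p = 0.0229), Adgre1 (1.88) and Mrc1 (1.63). The mean was above 0 for 9 of the 11, and below 0 for Cx3cr1 (-0.32) and Cd14 (-0.027), named after their values were seen. The summed level of the 11 was 9585 to 10991 in Ad-Lkb1 samples and 2534 to 5310 in wild-type samples, with the highest wild-type value in replicate 3. Of 14 interferon response genes tested, 2 rose and 0 fell, Oas2 (1.43) and Oasl1 (2.65), against 4.77% of all features higher, and 12 did not pass. All 14 had their highest wild-type level in replicate 3, and their summed level was 21482, 14069 and 10616 in Ad-Lkb1 samples 1 to 3, against 3876, 3619 and 29663 in wild-type samples. Much of the last sum came from Gbp2 and Irf1, whose levels were 13.70 and 12.35 in wild-type replicate 3. The interferon median log2 ratio was 2.88, 2.41 and -0.17 on arrays 1 to 3, and the macrophage median was 1.14, 1.41 and 0.56. The part of either in the complement values was not tested.

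Other cell types were read from their own markers, beside shares of 4.77% higher and 3.92% lower among all features. Of 8 fibroblast markers 5 rose and 0 fell, and those of smallest p were the collagen gene Col3a1 (2.25-fold), Lum (2.83-fold) and Col1a1 (1.67-fold). Of 6 monocyte and neutrophil markers 2 rose and 0 fell, S100a8 (log2 ratio 2.17) and S100a9 (2.39). Of 9 mature adipocyte markers 1 rose and 0 fell, near the 8.70% of all features that passed. The one past the threshold was the lipase gene Lpl (1.19), while 6 of the 9 had a mean log2 ratio below 0, and the median was -0.13. By levels, 2 of the 9 had every Ad-Lkb1 sample below every wild-type sample, Retn (-0.77) and Plin1 (-0.26), against 18.7% of all features. Another 2 had every Ad-Lkb1 sample above, Lpl and Fabp4 (0.48), against 17.8% of all features. Retn, Plin1 and Fabp4 did not pass and were named after their values were seen. Of 8 brown adipocyte markers 5 rose and 0 fell, among them Ucp1, Dio2 (2.07) and Cox7a1 (0.96). The summed level of the 9 mature adipocyte markers was 221796 to 235202 in Ad-Lkb1 samples and 160800 to 192125 in wild-type samples. That sum was carried by the brightest probes. The part of adipocyte content in the Cfd values was not tested. Among 7 endothelial genes Vwf rose (0.40) and Kdr fell (-0.42). By limma 0 of 4 lymphocyte markers passed (the smallest p was that of Ccr7, 0.53, adjusted p = 0.172), as did 0 of 3 hepatocyte markers (Apoc3, -0.37, adjusted p = 0.132), while the hepatocyte genes Alb, Apoa1, Ttr, Ahsg, Fga and Fgb did not pass the filter on dim probes. Skeletal muscle markers (0 of 5 past the threshold in limma; Acta1, 1.38, adjusted p = 0.609) had medians of -3.17, 2.33 and 3.90 on arrays 1 to 3.

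The rest of the pathway was read from a list of 44 other complement genes, of which 43 had a probe and 28 passed the filter on dim probes. Of these 28, 4 rose and 1 fell, against backgrounds of 4.77% and 3.92%. C5ar1, among the 4, was tested through the Ad-Lkb1 channel. With both channels required to exceed background, 3 of 26 rose and 1 fell, against 834 and 751 of 17515 features. The median log2 ratio of the 28 was 0.30, or -0.0084 with median centring, where that of all features was -0.42. Genes of the lectin and terminal pathways that are made by the liver, such as Mbl1, Mbl2, C6, C8a, C8b and C9, did not pass the filter. Without array 3, 12 of the 28 passed higher and 1 lower, and without array 1 or without array 2 limma called 0, with 8 at an unadjusted p under 0.05 in either case.

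Among receptors, C5ar1, which binds the anaphylatoxin C5a, had levels of 6.73, 6.79 and 6.74 in Ad-Lkb1 samples, against 5.93, 5.98 and 6.00 in wild-type samples. Its log2 ratios were 0.80, 0.80 and 0.74 (limma, adjusted p = 0.0146). It was not well above background in any wild-type sample and passed the filter through the Ad-Lkb1 channel, so no fold is given. Its size depends on the offset, and the software's processed signals gave a mean log2 ratio of 3.05. Its call was lost without array 1 (adjusted p = 0.135) and without array 2 (0.110). The second C5a receptor, C5ar2, had 0.33 (adjusted p = 0.0583), or 0.81 with the software's processed signals (adjusted p = 0.0722). Itgb2, the beta chain shared by the complement receptors CR3 and CR4, had log2 ratios of 1.83, 1.97 and 0.39 and did not pass (mean 1.40, adjusted p = 0.0790), but passed without array 3 (1.90, adjusted p = 0.00514).

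Regulators that protect cells rose in 3 cases of 11, against 4.77% of all features. Cd55, which speeds the decay of C3 convertases, had log2 ratios of 0.68, 0.69 and 0.67 (limma, adjusted p = 0.0175), a call lost with 3 of the 12 alternatives. Its paralog Cd55b had 0.39, 0.56 and 0.74 (adjusted p = 0.0396). The Cd55b call was lost with 7 of the 12, among them the software's processed signals (adjusted p = 0.0582) and leaving out array 1 (0.142), 2 (0.183) or 3 (0.0582). The size of the Cd55 and Cd55b ratios depends on the offset. Their means were 1.00 and 0.87 with an offset of 10, and 1.25 and 0.97 with the software's processed signals. Since these genes are close copies, which of them each probe measured is uncertain. Clu, or clusterin, which blocks the terminal complex, had 1.21, 1.02 and 0.49 (mean 0.91, adjusted p = 0.0428). The Clu call was lost with 6 of the 12 alternatives, among them the software's processed signals (adjusted p = 0.0654) and leaving out array 1 (0.183) or 2 (0.196). With median centring the means were 0.27, 0.21 and 0.20 for Cd55, Cd55b and Clu, none past the threshold, while the median of all features was -0.42. Vtn, the terminal inhibitor vitronectin, had -0.23 (adjusted p = 0.104), and Cpn2, a subunit of the carboxypeptidase that inactivates anaphylatoxins, had 0.24 (adjusted p = 0.136). With median centring both passed as lower, as did 9708 of all 19331 features. Vtn then had -0.80 (adjusted p = 0.00897) and Cpn2 -0.44 (adjusted p = 0.0412). With loess and averaged over its probes, Cpn2 had 0.11 (limma, adjusted p = 0.380), against 0.24 by its brightest probe.

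Cfp encodes properdin, which stabilises the alternative C3 convertase. Its levels were 10.86, 10.95 and 10.52 in Ad-Lkb1 samples, against 8.41, 8.63 and 9.79 in wild-type samples. The groups did not overlap, wild-type replicate 3 was again the highest of its group, and the mean log2 ratio of 1.83 did not pass (limma, adjusted p = 0.0563) but passed without array 3 (2.38, adjusted p = 0.00473). Fcna, the recognition protein ficolin A of the lectin pathway, had 0.44 (adjusted p = 0.0580), or 0.54 without array 3, past the threshold (adjusted p = 0.0400). The size of the Fcna ratio depends on the offset. It was 0.84 with an offset of 10 (adjusted p = 0.0408) and 1.24 with the software's processed signals (adjusted p = 0.0738). The gene that fell was C8g, the gamma chain of C8, with log2 ratios of -1.03, -0.55 and -0.61 (adjusted p = 0.0385). Averaged over its probes, C8g had a mean of -0.55 (limma, adjusted p = 0.0415), against -0.73 by its brightest probe. Its call was lost with 5 of the 12 alternatives, namely the software's processed signals (adjusted p = 0.0801), the deposited values (0.0806), no filter on dim probes (0.0736), and without array 1 (0.142) or 2 (0.143).

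**Figure D5:**
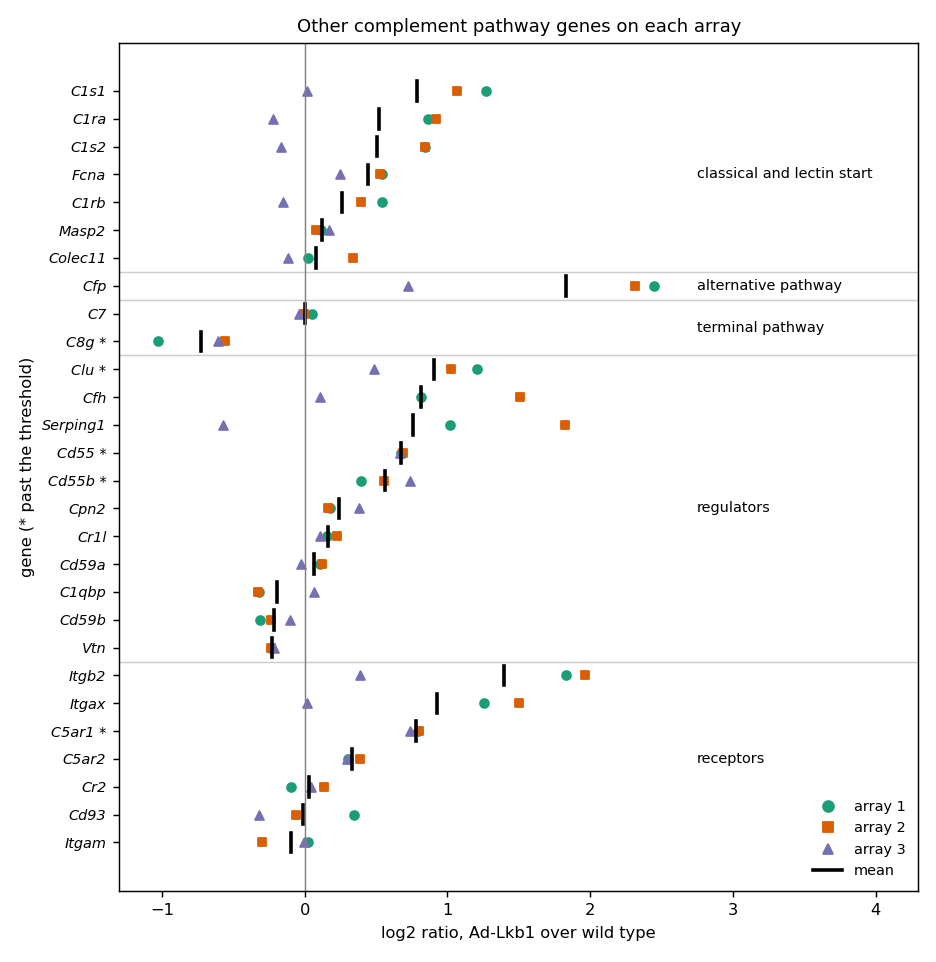
Log2 ratio, Ad-Lkb1 to wild type, (x axis) of the 28 other complement pathway genes tested, by role, with a symbol for each array and a bar at the mean. Cd55 and C5ar1 have nearly the same ratio on every array, while Cfp and Itgb2 are lower on array 3.

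Genes of most like pattern were taken by the distance between their 3 log2 ratios and those of a complement gene, a measure over 3 arrays only. The nearest to the mean of the C1q genes (1.75, 2.33 and 0.52 on arrays 1 to 3) were Alox5ap (distance 0.34), Emp3 (0.37), Evi2a (0.39) and Itgb2 (0.40). C3ar1 had close neighbours in Clec4b1 (0.080) and Abca8b (0.10), and Cfb in Casp4 (0.20) and Phf11d (0.31). The nearest to C2 were Mki67 (0.22) and Ccn1 (0.26), to C4b AW112010 (0.50) and Ms4a4b (0.51), and to C3 Anks1 (0.19) and Cldn5 (0.25). No gene was close to Cfd, for which the nearest, Acsl5 and Smoc1, were at distances of 1.03 and 1.11.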

How the data were processed

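Scanner output of 3 two-colour arrays was analysed. Median spot and background intensity were deposited unnormalized for both channels, and the processed intensity was background-subtracted and dye-normalized by the scanner software, per the file headers. The submitters' processing notes name Agilent Feature Extraction 11.5. The deposited value table holds the log10 ratio of Cy5 over Cy3, which matched the processed signals to within 0.0067 where the software had not set it to 0. The array's build is mm9 per the file headers.

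Median signals were corrected with normexp (offset 50), then loess within each array, in limma 3.58.1 (R 4.3.3). Control and outlier spots were left out, and spots averaged per probe. Probes had to exceed background clearly in either channel on each of the 3 arrays, and a gene was represented by its brightest such probe. Symbols came from RefSeq accessions (GRCm38.p6). The log2 ratio was tested against 0 (lmFit, eBayes, two-sided, Benjamini-Hochberg over 19331 features), which pairs the samples of an array. Levels were scaled between arrays with Aquantile. The fit was tested on simulated data. The number of arrays limits the precision.

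The members and lists were chosen with earlier results of these data known, and the promoter motifs after values were seen. Named genes were the members, Stk11, Ucp1, pathway genes past the threshold (at most 8) and the next 6 by p, up to 3 past the threshold of each marker list or otherwise the 1 of smallest p, and the genes nearest in pattern (5 to the C1q mean, 2 to each other member), of which 1 is not reported here. Genes that did not pass the filter are named beside their lists. Alternatives covered background correction, centring, processed signals, the deposited values, probe filters, probe choice, the pairing and leaving out each array.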

Additional observations from a re-analysis of the deposited data

How the results depend on the processing

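Counts of genes past the threshold depended on the processing, and the cause was not tested. Of all features, 1681 passed in the main analysis, 10097 with median centring (389 higher and 9708 lower), 811 with the software's processed signals, 813 with the deposited value table, 1033 without a filter on dim probes and 2981 with no replicate block, that is, ignoring the pairing within an array. Leaving out 1 array gave 0 to 2041, with 3928 and 3563 at an unadjusted p under 0.05 where limma called 0. Of the 9 complement genes, 1 passed in the main analysis, 3 with median centring (1 higher and 2 lower), 3 without background subtraction, 3 with an offset of 10, 0 without a filter on dim probes (5 at an unadjusted p under 0.05) and 4 with no replicate block. Leaving out 1 array gave 0 to 7. Of the 28 other pathway genes, 5 passed in the main analysis, 11 with median centring, 8 with an offset of 10, 2 with the software's processed signals, 2 with the deposited value table, 3 without a filter (of 43 tested) and 8 with no replicate block, and 0 to 13 when 1 array was left out. C4b turned to -0.41 with median centring, -0.31 without array 1 and -0.22 without array 2 (1.45 without array 3), and Cpn2 to -0.44 with median centring. Over 12 alternatives C1qa ranged from 0.67 to 1.89, C1qb from 1.04 to 2.31, C1qc from 0.82 to 1.91, Cfb from 0.85 to 2.24, C2 from 0.0013 to 1.60 and C3 from -1.05 to -0.034. Of the values recomputed for members, pathway genes, label checks and the named macrophage and interferon genes, 239 kept direction and side of the threshold, 30 newly passed, 49 no longer passed and 4 changed sign. C3ar1 ranged from 0.54 to 2.22, dim signal being the limit.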
